A study of Mus musculus with 2 samples.

Results

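The genes described here are 38 genes of DNA replication and the S phase, taken as a named list from both count matrices, which hold 32285 genes each. They were followed in single bone marrow cells of chronic myeloid leukemia (CML) mice with and without the microRNA miR-142. The list covers 7 roles, and its rule uses no measured level, though it was drawn up with earlier results of these data known. All 38 members were found in both matrices and matched to the GRCm38 annotation. Levels of a gene in dividing cells and the share of cells that divide are different quantities, and both move a level averaged over all cells. They are therefore given apart, as far as counts of transcripts allow.

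The cells were LSK cells of the bone marrow, which lack lineage markers and carry Sca-1 and c-Kit, a fraction that holds stem cells and early progenitors. All mice were of the B6 background, were 8 to 10 weeks old and carried SCLtTA/BCR-ABL, a tet-off transgene in which the SCL promoter drives BCR-ABL once tetracycline is withdrawn, and BCR-ABL had been on for 2 weeks. The miR-142 WT CML library came from mice with intact miR-142, and the miR-142 KO CML library from mice that lacked miR-142 in every cell of the body. Each group was 1 library of about 8000 captured cells, and the number of mice behind it is not given in the sources used here. No test between the groups was therefore possible, no p-value is given, and every interval covers counting error only. The promoter limits BCR-ABL to cells that use SCL, and the wild-type and knockout mice both carried it.

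Replication starts in G1, when Cdc6 and Cdt1 load the MCM helicase (Mcm2 to Mcm7) onto origins, and cyclin E and E2F1 commit the cell to S phase. Mcm10, Cdc45 and the GINS complex then turn the loaded helicase into a moving fork. At the fork, the clamp PCNA, its loader RFC, the polymerases alpha and delta, the flap nuclease FEN1 and DNA ligase 1 take part in copying the DNA. Ribonucleotide reductase (Rrm1, Rrm2) and thymidylate synthase (Tyms) supply the nucleotides, while CAF-1 (Chaf1a, Chaf1b) packs the new strands into chromatin. Most blood stem cells rest outside the cycle, and their progeny divide fast.

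Barcodes with at least 8000 total UMIs (unique molecular identifiers, 1 per captured transcript) and under 10% mitochondrial UMIs were taken as cells, which gave 5363 WT and 5458 KO cells with a median of 19443 and 24182 UMIs. The 2 libraries shared 4 cell barcodes. Mir142hg, the host transcript of miR-142, gave 1260 UMIs in WT and 20 in KO, or 9.12 and 0.126 CPM (UMIs of a gene per 1000000 UMIs of the same cells). The sort markers Kit (86.4 and 68.3 CPM), Ly6a (96.8 and 152.9 CPM) and Cd34 (255.2 and 199.2 CPM) were present in both. Of the genes of mature lineages shown here, Cd3e (0 and 0.0126 CPM) and Ly6g (0.0289 and 0.0884 CPM) were at or near 0, Itgam stood at 8.27 and 10.7 CPM, Cd79a at 3.69 and 0.0505 CPM, and the globin Hbb-bt at 60.96 and 114.9 CPM. The members took 445158 WT and 444619 KO UMIs, or 0.322% and 0.281% of all UMIs in cells.

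To find cells in cycle without using the members, each cell was thinned at random to 8000 UMIs and scored by 25 other S-phase genes (the S gate list, such as Tk1) and by 31 genes of G2 and mitosis (the G2/M gate list, such as Ccnb1 and Plk1). With a gate of 5 UMIs on either list, 90.8% of WT cells (exact 95% interval from 89.96 to 91.5) and 88.5% of KO cells (87.6 to 89.3) were in cycle, a difference of -2.29 ± 1.16 percentage points (the error joins both half-widths in quadrature). The S gate alone held 89.7% and 87.6%. That gate proved low, since the S gate list counts of both libraries together had a hump on each side of a shallow dip at 11 UMIs. With the S gate at the dip, which was set after the counts of the gate list were seen, the shares in cycle were 75.8% in WT (74.6 to 76.9) and 76.3% in KO (75.1 to 77.4). The difference was then 0.495 ± 1.62 points, so the direction over all cells hung on the gate. In the dip gate, 802 WT and 789 KO cells lay within 2 UMIs of the limit. Without thinning, the shares in cycle were 94.6% and 93.7% at the gate of 5 and 83.4% and 82.0% at the dip.

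**Figure D1:**
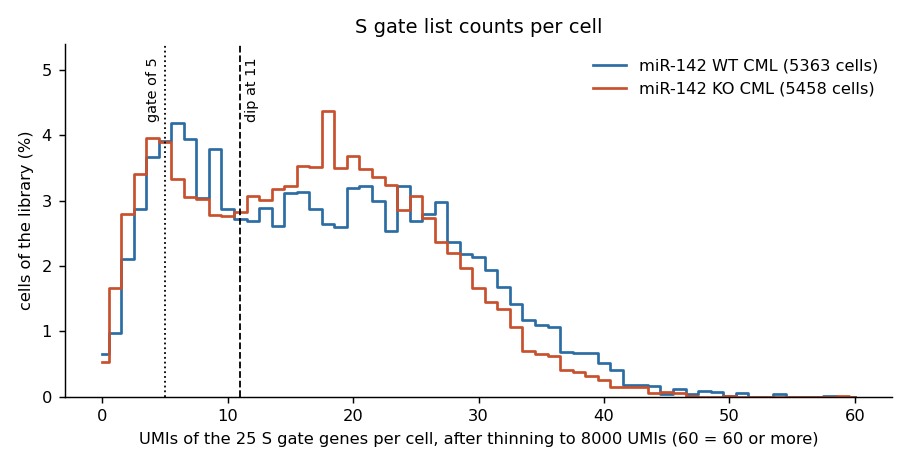
The x axis gives UMIs of the 25 S gate genes per cell after thinning to 8000 UMIs, and the y axis the percent of cells of each library. The dotted line marks the gate of 5 UMIs and the dashed line the dip at 11 UMIs, which left 68.0% of WT and 68.8% of KO cells in the S gate.

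The place of the cells within the cycle differed more than the share in cycle. Cells in both gates made up 48.3% of WT (46.9 to 49.6) and 55.2% of KO cells (53.9 to 56.5) with the S gate at the dip. Cells in the S gate alone made up 19.7% of WT (18.6 to 20.8) and 13.5% of KO cells (12.6 to 14.5). Cells in the G2/M gate alone were 7.83% and 7.53%. Over all cells, more KO than WT cells therefore passed the G2/M gate, at 62.8% against 56.1%, but fewer held it strongly. Within the cell groups described below, the share that passed this gate was lower in KO. At least 40 UMIs of the G2/M list were found in 17.2% of WT (16.2 to 18.3) and 10.3% of KO cells (9.52 to 11.2). At least 40 UMIs of the members were found in 16.8% of WT (15.8 to 17.8) and 8.87% of KO cells (8.13 to 9.65).

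The gates were checked with Mki67 and Top2a, markers of dividing cells that are on neither list. Mki67 stood at 6.82 CPM in WT cells out of cycle, 16.0 CPM in S-only cells, 233.8 CPM in cells of both gates and 280.6 CPM in G2/M-only cells. In KO the same classes gave 5.94, 15.9, 139.6 and 151.5 CPM. Mki67 was thus lower in KO in cells of both gates (log2 ratio KO over WT -0.74, 95% interval -0.77 to -0.71) and near equal in S-only cells (-0.01, -0.26 to 0.24). Top2a was lower too in cells of both gates, with -0.57 (-0.59 to -0.55) there and -0.05 (-0.15 to 0.05) in S-only cells. Transcripts of the S gate list were also found outside cells. Barcodes under 100 UMIs held 1931 (WT) and 1904 (KO) CPM of the list, so 8000 UMIs of free RNA alone would hold 15.4 and 15.2 UMIs of it. How much free RNA each cell held was not tested. The 36 plasma-like WT cells, a type that divides little, passed the S gate at 11.1% with 5 UMIs and at 5.56% at the dip, with a median of 27954 UMIs.

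Cells were then sorted into groups by marker genes, such as Hlf and Procr for HSC-like cells, Dntt and Flt3 for lymphoid-primed-like cells, and Elane, Mpo, Prtn3, Ctsg and Ms4a3 for granule-high cells, which carry neutrophil granule transcripts. The marker limits were set after the data were seen. Granule-high cells numbered 797 in WT (14.9%) and 2691 in KO (49.3%), and 250 WT and 518 KO cells lay near the limit, between 40 and 60 granule UMIs. They were in cycle in nearly every case, at 98.6% in WT (97.5 to 99.3) and 94.4% in KO (93.4 to 95.2) with the S gate at the dip. HSC-like cells were 942 WT and 142 KO cells, of which 53.0% (49.7 to 56.2) and 40.8% (32.7 to 49.4) were in cycle. Granule-high cells therefore made up 19.3% of the WT cells in cycle and 60.98% of those in KO, and HSC-like cells 12.3% and 1.39%.

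Within each of the 6 groups with at least 100 cells in both libraries, the share in cycle was lower in KO. At the dip all 6 differences were larger than their counting error. The share was 75.2% in WT and 54.9% in KO for lymphoid-primed-like cells (-20.4 ± 7.09 points), 77.9% and 62.0% for megakaryocyte/erythroid-like cells (-15.9 ± 6.41) and 57.6% and 34.2% for basophil/mast-like cells (-23.4 ± 8.84). It was 79.6% and 66.7% for ungated cells, those that passed no marker limit (-12.9 ± 2.91). At the gate of 5, 5 of the 6 were beyond error, and the HSC-like difference of -7.73 ± 7.85 points was not. Weighted to one mix of groups, the share in cycle was 81.4% in WT and 69.8% in KO at the dip, and 92.9% and 85.9% at the gate of 5. The gate lists were themselves lower in KO within S-gated cells (gate of 5). Their median log2 ratios were -0.22 for the S gate list (23 genes with a mean of 10 CPM) and -0.24 for the G2/M gate list (31 genes). All genes had -0.09 there. A fixed UMI limit on such lists does not set share fully apart from level, and the part of each was not tested.

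The cells of these groups were shallower in KO, with a median of 55944 UMIs in WT and 39429 in KO for granule-high cells, 19002 and 13863 for lymphoid-primed-like cells, and 12414 and 10886 for HSC-like cells. The least number of UMIs asked of a cell also moved the differences. With 12000 UMIs in place of 8000 and the gate of 5, lymphoid-primed-like cells gave 1.55 ± 3.85 points, the opposite direction, and megakaryocyte/erythroid-like cells -2.13 ± 2.84. The differences of granule-high (-1.75 ± 0.57), basophil/mast-like (-18.9 ± 9.90) and ungated cells (-3.39 ± 1.56) stayed beyond error there, and HSC-like cells were too few to compare. At the dip with 12000 UMIs, lymphoid-primed-like cells gave -5.86 ± 7.07 and megakaryocyte/erythroid-like cells -1.28 ± 4.92. Whether depth or cell size sets these shares was not tested.

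**Figure D2:**
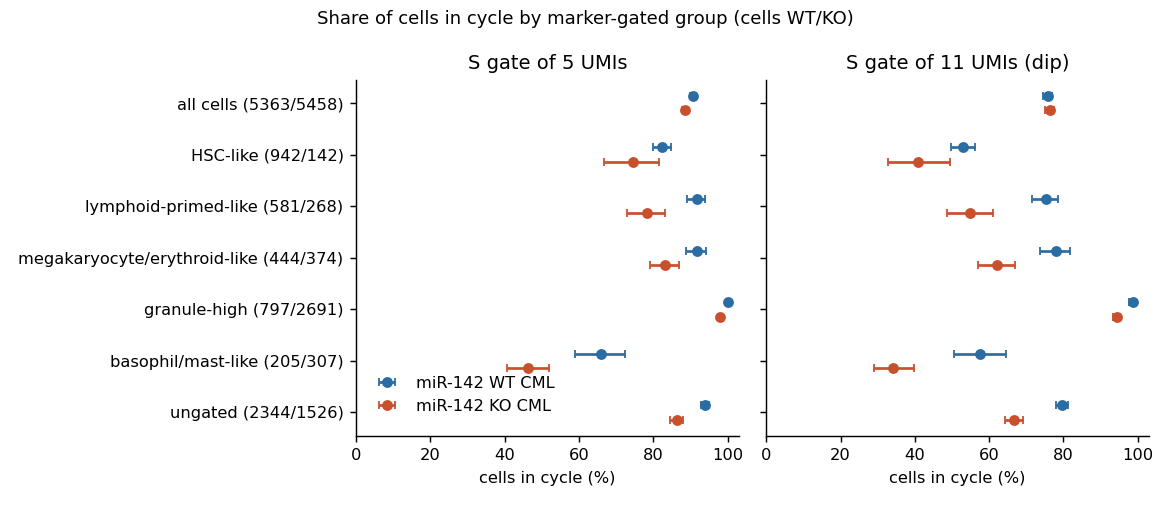
Points give the percent of cells in cycle in each marker-gated group, with exact 95% intervals, for the gate of 5 UMIs (left) and the dip at 11 UMIs (right), with cell numbers WT/KO beside each name. All 6 groups lie lower in KO in both panels, while the values over all cells differ by -2.29 and 0.495 points.

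The members followed the S gate closely. Their summed level was 1001 CPM in WT cells out of cycle, 3907 CPM in S-only cells, 3649 CPM in cells of both gates and 1376 CPM in G2/M-only cells. In KO the 4 classes gave 896, 3537, 3108 and 1443 CPM. The median member was 4.88-fold higher in S-gated than in out-of-cycle cells in WT and 5.01-fold higher in KO. At least 2-fold were 35 and 36 of the 38 members, and the share of all genes that were so was not counted. The steepest was Rrm2, the subunit of ribonucleotide reductase made for S phase, at 4.79 CPM out of cycle and 153.2 CPM in S-gated WT cells, a fold of 32.0, and 26.1 in KO. Mcm10 (23.1-fold and 18.2-fold) and Exo1, a nuclease of mismatch repair (13.9-fold and 14.7-fold), were also steep. Rfc2, a subunit of the clamp loader, was flat at 1.44-fold and 1.07-fold, and Chaf1b reached 1.42-fold and 1.64-fold. In barcodes under 100 UMIs the median member stood at 2.86 times its out-of-cycle level in WT and 3.24 times in KO, and the part of free RNA in the out-of-cycle levels was not tested.

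S-only cells and cells of both gates also split the members. The log2 ratio of S-only over both-gate levels was highest for Ung, the uracil glycosylase that clears uracil from new DNA, at 1.57 (1.49 to 1.66) in WT and 1.55 (1.46 to 1.63) in KO. E2f1 (0.69 and 0.83), Mcm4 (0.63 and 0.57), Mcm6 (0.58 and 0.51) and Mcm2 (0.54 and 0.48) also leaned to S-only cells. Pcna was level in WT at 0.03 (-0.02 to 0.07) and leaned slightly to S-only cells in KO at 0.10 (0.05 to 0.15). Rrm2 leaned furthest to cells of both gates, at -1.52 (-1.60 to -1.43) in WT and -0.92 (-1.004 to -0.84) in KO. The nucleotide genes Tyms (-0.77 and -0.53) and Rrm1 (-0.68 and -0.45) and the firing factors Cdc45 (-0.65 and -0.30) and Mcm10 (-0.63 and -0.32) followed. The licensing genes had a median of 0.28 in WT and 0.48 in KO, the firing genes of -0.32 and -0.14.

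The order of the members was much the same in both libraries, with a Pearson r of 0.968 and a Spearman rho of 0.968 across the 38 genes, which share their cells and depth and are not independent replicates. In WT, 20 members leaned to S-only cells and 12 to cells of both gates beyond their counting intervals, and in KO 23 and 11 did so. The ratio was shifted toward S-only cells in KO for 31 of the 38 members. None of these counts was made over all genes, so a shift particular to the members was not tested. The widest shifts were those of Ccne1, cyclin E1, from -0.94 to -0.20, and of Rrm2, from -1.52 to -0.92. Ccne1 stood at 11.3 (WT) and 19.5 (KO) CPM in S-only cells, and at 21.6 and 22.5 CPM in cells of both gates. The 2 libraries differed in the makeup of these classes by cell group, and the part of that in the shift was not tested.

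**Figure D3:**
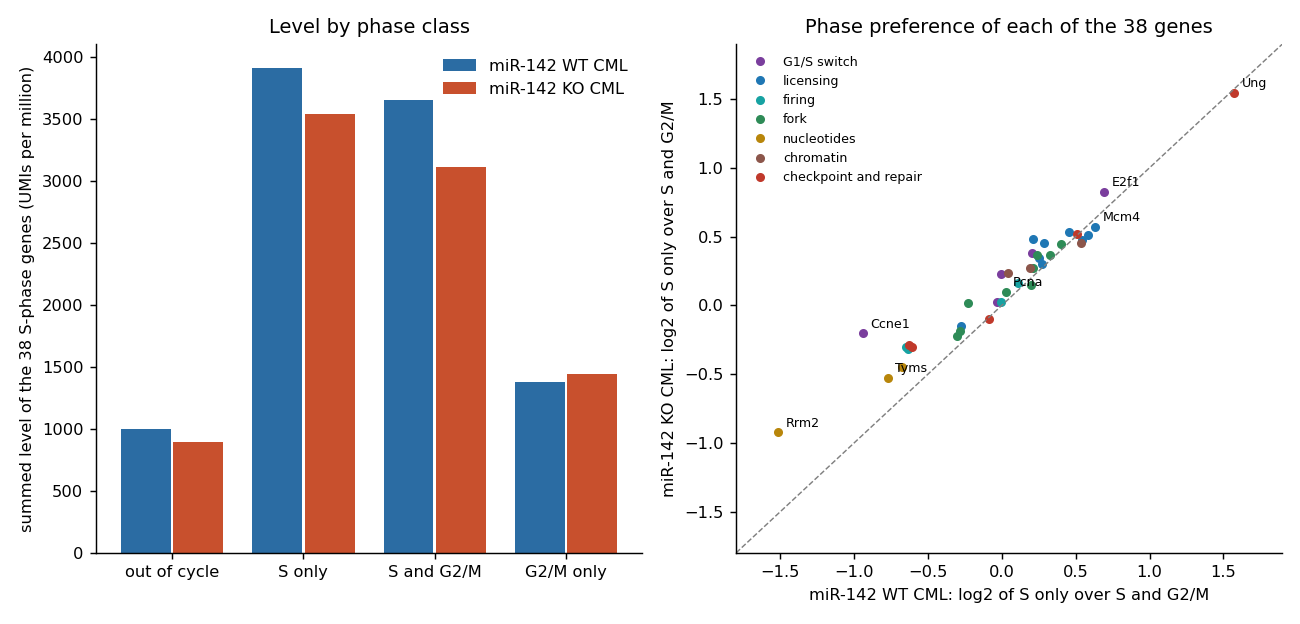
The left panel gives the summed level of the 38 genes in CPM for each phase class and library, 3907 and 3537 CPM in S-only cells against 1001 and 896 CPM out of cycle. The right panel sets the log2 ratio of S-only over both-gate levels in WT (x axis) against that in KO (y axis), where Ung lies at the top, Rrm2 at the bottom, and 31 of 38 genes above the dashed line of equal values.

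Because the members were higher together in S-gated cells, their promoters were searched for letters that E2F factors bind. RefSeq windows (GRCm38.p6) of 250 bases before to 50 bases after a transcript start were at hand for 30 members. Not in that table were Ccne2, Mcm4, Gmnn, Gins1, Gins2, Rfc2, Dscc1 and Exo1. The letters TTTCCCGC, TTTGGCGC, TTTCGCGC and TTTGCCGC were searched on both strands, and copies may overlap. At least 1 copy was found in 13 of the 30 members (43.3%), in 704 of all 27025 genes of the table (2.61%) and in 335 of the 6038 genes that were both in the table and measured here at a mean of 10 CPM (5.55%). Of the other replication genes described below, 10 of 35 held one (28.6%). The 8 members with a copy before the start are shown 5′ to 3′ along their own strand, with the matched letters in capitals, to show where the letters lie and what surrounds them. The likeness of the letters themselves is set by the search.
Mcm5, chr8:75109330-75109393 (+): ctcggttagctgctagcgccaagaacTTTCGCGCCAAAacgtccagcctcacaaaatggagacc
Mcm6, chr1:128359719-128359841 (-): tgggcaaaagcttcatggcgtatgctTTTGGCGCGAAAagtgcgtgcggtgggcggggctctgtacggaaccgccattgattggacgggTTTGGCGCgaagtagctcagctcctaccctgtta
Mcm7, chr5:138172015-138172074 (-): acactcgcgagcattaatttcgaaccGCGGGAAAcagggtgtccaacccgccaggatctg
Cdc6, chr11:98907987-98908046 (+): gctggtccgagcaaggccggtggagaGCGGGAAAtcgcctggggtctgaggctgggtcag
Pola1, chrX:93632260-93632319 (-): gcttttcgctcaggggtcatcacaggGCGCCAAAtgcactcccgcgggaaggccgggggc
Uhrf1, chr17:56304102-56304161 (+): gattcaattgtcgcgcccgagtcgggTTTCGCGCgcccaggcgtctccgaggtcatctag
Hells, chr19:38930902-38930961 (+): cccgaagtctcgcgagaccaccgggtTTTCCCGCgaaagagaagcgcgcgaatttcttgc
Dtl, chr1:191575545-191575578 (-): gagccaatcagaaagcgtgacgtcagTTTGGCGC

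Mcm5 and Mcm6 each hold 2 copies that overlap on opposite strands, 153 and 149 bases before the start in Mcm5 and 110 and 106 bases before it in Mcm6, which has a further copy at 47 bases. The copy of Dtl ends at the base before the start. The starts used for Uhrf1, Mcm7, Cdc6 and Hells lie inside the annotated spans of these genes, and their windows overlap those spans. Mcm3, Cdt1, Lig1, Pold3 and Clspn held a copy within 50 bases after the start, and Mcm7 had one there too. A match is a run of letters and not a measured binding site. The 13 members with the letters had a median log2 ratio KO over WT of -0.30 in S-gated cells (range -0.50 to -0.17), and the 17 without had -0.18 (-0.40 to 0.19), as a description of overlapping ranges.

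The levels of the members were compared between the libraries in all cells and in S-gated cells. Levels are in CPM. Each captured 3′ end counts once, so values were not divided by gene length, and where a gene is called the highest of its group this is by CPM. In all cells the median log2 ratio KO over WT of the 38 members was -0.22, against -0.08 for the 7482 genes with a mean of 10 CPM. In S-gated cells (gate of 5) it was -0.22 against -0.09 for 7418 genes, and at the dip -0.25 against -0.09 for 7332 genes. The half-width of a member's own counting interval was 0.04 in the median. The gap to all genes hung on which genes were counted: with every gene that had a UMI in each library, the median of all genes in S-gated cells was -0.20, and with a mean of 50 CPM it was 0.00, against -0.25 for the 21 members that passed that limit.

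The count of members past a fold was close to the background in all cells and further from it at the dip. At least 1.2-fold lower in KO were 11 of the 38 members in all cells (28.9%), where 25% of all genes tested were so. In S-gated cells 12 members were (31.6%, all genes 26.2%), and at the dip 16 were (42.1%, all genes 25.4%). At least 1.2-fold higher was 1 member each time, Ccne2, where 10.6%, 10.1% and 9.79% of all genes were. A log2 ratio below 0 was found for 33 of the 38 members in S-gated cells, and for 63.1% of all genes tested there.

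The scale bears on these signs. Over all S-gated cells, KO cells gave more UMIs (mean 31292 against 27171 in WT). Counted per S-gated cell in place of in CPM, the members came to 91.7 UMIs per cell in KO against 91.4 in WT. The median log2 ratio per cell was -0.02 for the members and 0.12 for all genes. With size factors from the median of gene ratios the members gave -0.03 and all genes 0.11. On all 3 scales the members lay 0.13 below the median of all genes, by construction the same gap. Of the 38 members, 21 were below 0 on all 3 scales and 5 above 0 on all 3 (Ccne1, Ccne2, Gmnn, Gins1 and Rrm2). A further 12 changed sign with the scale (E2f1, Mcm2, Mcm7, Cdc6, Cdc45, Gins2, Pcna, Fen1, Rpa2, Tyms, Exo1 and Ung). The shares of all genes with such signs on the 3 scales were not counted. The members' signs are those of all S-gated cells pooled over cell groups. Rrm2, for one, was below 0 by CPM within each of the 5 groups compared below at the dip. Within groups, member UMIs per S-gated cell were lower in KO for granule-high (199.2 in WT, 122.4 in KO) and ungated cells (81.3 and 58.1). They were also lower for megakaryocyte/erythroid-like (68.5 and 45.9), lymphoid-primed-like (68.4 and 42.6) and HSC-like cells (40.2 and 29.0). For basophil/mast-like cells they were not (69.3 and 72.0). Total UMIs were lower in KO too, with medians over all cells of 55944 and 39429 for granule-high and 19593.5 and 16170.5 for ungated cells. By CPM, the summed members in S-gated cells gave log2 ratios of -0.24 in both of these groups. They gave -0.30 in megakaryocyte/erythroid-like and lymphoid-primed-like, -0.29 in HSC-like and -0.14 in basophil/mast-like cells. Neither the part of depth in the values per cell nor that of the group mix in the signs above was tested.

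**Figure D4:**
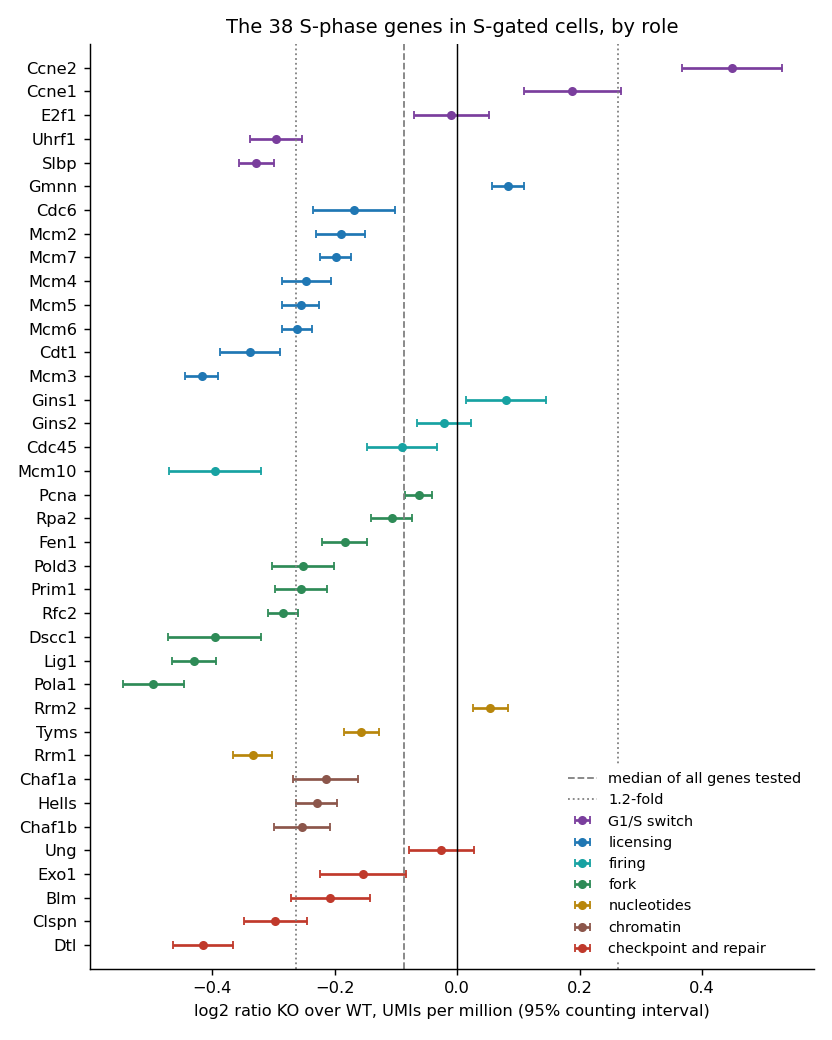
Points give the log2 ratio KO over WT of each gene in S-gated cells (gate of 5 UMIs, from CPM), with 95% counting intervals, coloured by role. The dashed line is the median of all genes tested at -0.09 and the dotted lines mark 1.2-fold. Pola1 at -0.50 and Ccne2 at 0.45 are the ends, and 12 genes between them, Pcna and Mcm2 included, change sign when counted per cell or scaled by size factors.

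Of the licensing genes, 8 of 9 were below 0 by CPM in S-gated cells, with a median of -0.25. Mcm3, on chromosome 1 from 20802968 to 20820312, gave 186.8 CPM in WT against 139.9 CPM in KO (log2 ratio -0.42, -0.44 to -0.39), the lowest of the 6 helicase subunits. Mcm6, the highest member of the group in WT, gave 202.9 and 169.3 CPM (-0.26, -0.29 to -0.24), Mcm5 137.9 and 115.6 CPM (-0.26) and Mcm4 79.0 and 66.6 CPM (-0.25). Mcm7 (199.0 and 173.4 CPM, -0.20) and Mcm2 (76.3 and 66.9 CPM, -0.19) were lower by CPM but not per cell, at 0.01 for both. The loader Cdt1 was lower at 54.2 and 42.9 CPM (-0.34, -0.39 to -0.29). Its inhibitor geminin (Gmnn) was slightly higher over all S-gated cells at 161.4 and 171.1 CPM (0.08, 0.06 to 0.11). Within the 5 cell groups compared below at the dip, Gmnn lay between -0.18 and 0.04, and no counting interval was above 0. Cdc6 gave 27.6 and 24.5 CPM (-0.17), with its sign set by the scale.

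The fork genes were all below 0 by CPM, 9 of 9, with a median of -0.26, and 4 were at least 1.2-fold lower. Pola1, the catalytic subunit of the polymerase that starts each new strand (chromosome X, 93304767 to 93632155), was lowest of all members, with 54.9 CPM in WT against 39.0 CPM in KO (-0.50, -0.55 to -0.45). Lig1, which seals the fragments of the lagging strand, stood at 105.0 and 78.0 CPM (-0.43, -0.47 to -0.39), and Dscc1, of the alternative clamp loader, at 23.2 and 17.6 CPM (-0.40, -0.47 to -0.32). Rfc2 gave 217.9 and 179.0 CPM (-0.28), Prim1, the primase, 71.5 and 59.9 CPM (-0.26), and Pold3, of polymerase delta, 49.7 and 41.8 CPM (-0.25). Pcna, the highest member of the whole list (chromosome 2, 132249162 to 132253314), was nearly level at 258.7 and 247.6 CPM (-0.06, -0.08 to -0.04) and was above 0 on both other scales (0.13 and 0.14). Fen1 (-0.18) and Rpa2 (-0.11) also changed sign with the scale. Within the 5 cell groups compared below at the dip, Rfc2 lay between -0.12 and 0.03 and Dscc1 between -0.38 and -0.07. Neither these ranges nor those of Lig1 and Pola1 given below reached the gene's value over all S-gated cells. The part of the group mix in this was not tested.

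The genes of the G1/S switch went both ways. Slbp, which binds histone transcripts, gave 157.3 CPM in WT against 125.3 CPM in KO (-0.33, -0.36 to -0.30), and Uhrf1, which keeps DNA methylation behind the fork, gave 71.1 and 57.9 CPM (-0.30). Ccne2, cyclin E2 (chromosome 4, 11191351 to 11204779), was the only member over 1.2-fold higher, at 15.4 and 21.0 CPM (0.45, 0.37 to 0.53). Ccne1 stood at 17.4 and 19.8 CPM (0.19, 0.11 to 0.27). E2f1 was level at 30.6 and 30.4 CPM (-0.01, -0.07 to 0.05), with its sign set by the scale. Within cell groups at the dip these values differed, with Ccne1 at -0.30 (-0.40 to -0.20) in granule-high and 0.26 (0.06 to 0.45) in ungated cells, Ccne2 at 0.35 (0.24 to 0.47) and 0.26 (0.08 to 0.43), and E2f1 at -0.02 (-0.11 to 0.08) and 0.11 (-0.01 to 0.23).

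Among the firing genes Mcm10 was lower at 24.0 and 18.3 CPM (-0.40, -0.47 to -0.32). Gins2, the highest of the group, was level at 58.9 and 58.1 CPM (-0.02, -0.07 to 0.02), Gins1 gave 0.08 and Cdc45 -0.09. Within cell groups at the dip, Gins1 ran from -0.17 in megakaryocyte/erythroid-like to 0.39 in basophil/mast-like cells, with -0.09 in granule-high cells. The 3 nucleotide genes gave -0.33 for Rrm1 (127.8 and 101.4 CPM), -0.16 for Tyms, the highest of the group in WT (143.9 and 129.1 CPM), and 0.05 for Rrm2 (134.5 and 139.7 CPM). The chromatin genes were close to each other, at -0.25 for Chaf1b, -0.23 for Hells, a helicase of DNA methylation and the highest of the group (112.8 and 96.2 CPM), and -0.21 for Chaf1a. Of the checkpoint and repair genes, Dtl, which marks Cdt1 for breakdown, was lowest at 55.6 and 41.6 CPM (-0.42, -0.46 to -0.37). Clspn, of the replication checkpoint, gave -0.30, Blm, a helicase that undoes crossed strands, -0.21, Exo1 -0.15 and Ung -0.03, and the last 2 changed sign with the scale.

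The ratio was then split into the part that stayed at one fixed mix of cells and the part that the mix alone gave. The summed level of the members over all cells gave a log2 ratio of -0.20, and -0.21 without plasma-like cells, which KO lacks. At one mix of the 4 phase classes it was -0.21, and the mix alone would have given 0.01. At one mix of 7 cell groups it was -0.29, and the mix alone would have given 0.08, the opposite direction. At that mix 24 of the 38 members were at least 1.2-fold lower and none was higher. The groups held cells of every phase there, so these values keep the differences in the share in cycle within groups. The share of all genes past the fold at that mix was not counted. Split by both phase class and cell group, the log2 ratio of the summed level was -0.20 at one mix and -0.01 from the mix. By class, the median member was at -0.15 in S-only cells (all genes -0.09), -0.25 in cells of both gates (-0.09) and 0.07 in G2/M-only cells (-0.10, 33 members tested). In cells out of cycle it was -0.25 (all genes -0.01, 26 members tested), with a median counting half-width of 0.22.

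Within cell groups the members were compared in the 5 groups with at least 50 S-gated cells at the dip in each library. The median log2 ratio was -0.20 in granule-high cells (756 WT and 2354 KO cells, all genes -0.07), -0.17 in ungated cells (1706 and 898 cells, all genes -0.05) and -0.25 in megakaryocyte/erythroid-like cells (313 and 208 cells, all genes -0.05). It was -0.11 in lymphoid-primed-like cells (366 and 111 cells, all genes -0.03) and -0.03 in basophil/mast-like cells (96 and 77 cells, all genes 0.03), where the median counting half-width of a member was 0.27 and 0.35. With the gate of 5, when 102 KO HSC-like cells could be compared too, the median was below 0 in all 6 groups. It ran from -0.34 in megakaryocyte/erythroid-like (all genes -0.05) to -0.11 in basophil/mast-like cells (all genes 0.03). In HSC-like cells it was -0.27 (all genes -0.02). The median counting half-width of a member was 0.33 in basophil/mast-like and 0.39 in HSC-like cells, larger than these medians. With size factors the members' median stayed below 0 in all 6. At the dip, 15 members (39.5%) were below 0 in all 5 groups, where 18.0% of 7321 genes were. No member was above 0 in all 5, where 13.5% of genes were.

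Only Mcm3 and Rrm2 had a counting interval below 0 in every one of the 5 groups. The share of all genes with such intervals was not counted. Mcm3 ranged from -0.49 in lymphoid-primed-like to -0.34 in ungated cells. Rrm2 was -0.39 in granule-high cells (224.0 CPM in WT and 171.2 CPM in KO), -0.47 in megakaryocyte/erythroid-like cells (98.0 and 70.5 CPM), -0.35 in lymphoid-primed-like cells (95.2 and 74.7 CPM), -0.34 in basophil/mast-like cells (200.6 and 158.3 CPM) and -0.14 in ungated cells (114.2 and 103.3 CPM). Over all S-gated cells it was nevertheless 0.01 at the dip (153.2 and 154.8 CPM). Granule-high cells, where Rrm2 stood highest, were 756 of the 3645 S-gated WT cells and 2354 of the 3753 in KO. Lig1 lay between -0.35 and -0.21 and Pola1 between -0.37 and -0.09 over the 5 groups. Basophil/mast-like cells differed for some members, with 0.56 for Cdt1 (0.14 to 0.99), 0.56 for Mcm7 (0.35 to 0.78) and 0.79 for Ung (0.26 to 1.34).

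**Figure D5:**
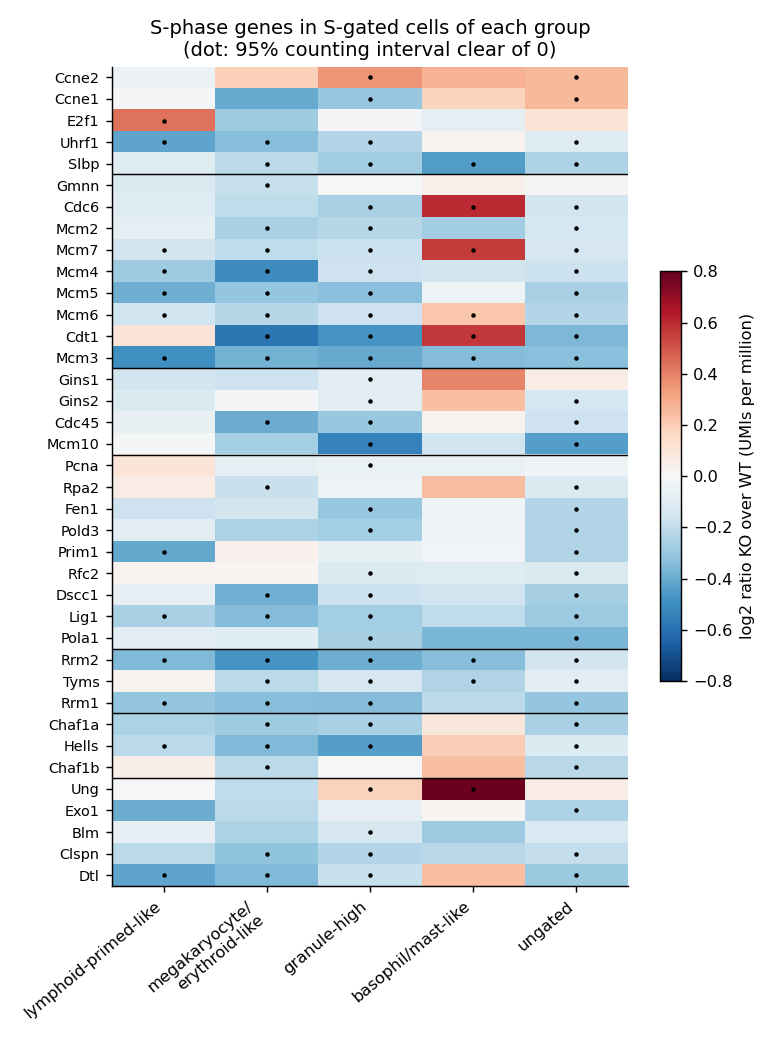
Colours give the log2 ratio KO over WT (from CPM) of each gene in S-gated cells at the dip for 5 marker-gated groups, ordered by role as in the plot of ratios by role, with a dot where the 95% counting interval is clear of 0. Blue prevails in 4 groups, Mcm3 and Rrm2 carry a dot in all 5, and basophil/mast-like cells hold red cells for Cdt1, Mcm7, Cdc6 and Ung.

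Other genes of the replication machinery were taken from a further list of 41, of which 37 reached 10 CPM in S-gated cells at the dip. Their median log2 ratio was -0.13, and 13 were at least 1.2-fold lower and 1 higher (35.1% and 2.70%, where 25.4% and 9.79% of all genes were). The catalytic subunits Pold1 (48.7 CPM in WT and 34.3 CPM in KO, -0.50) and Pole (25.3 and 19.1 CPM, -0.41) lay near Pola1, and so did Rfc1, the large clamp loader subunit (101.6 and 74.3 CPM, -0.45), and Timeless, of the fork protection complex (35.2 and 24.2 CPM, -0.54). Of the accessory polymerase subunits, Pola2 (-0.34), Pole2 (-0.31) and Pold4 (-0.22) were lower, while Pole4 (-0.10), Pole3 (-0.07) and Pold2 (0.06) were nearer to 0. The origin recognition genes Orc2, Orc3, Orc4 and Orc6 lay between -0.12 and -0.01. Rnaseh2c, of the nuclease that removes ribonucleotides from DNA, was the one gene past the fold upward, at 230.3 and 285.1 CPM (0.31, 0.28 to 0.33).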

How the data were processed

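Per the labels' processing notes the authors ran Cell Ranger 6.1.2 on mm10, while the header of the deposited matrices names Cell Ranger 4. The deposited values are raw, unfiltered UMI counts per gene and barcode (10x 3′ kit). Python 3.11.15 with scipy 1.17.1 was used. Cells had at least 8000 UMIs and under 10% mitochondrial UMIs. For gating alone, each cell was thinned to 8000 UMIs (seed 1). Levels are summed unthinned counts scaled to CPM, tested genes had a mean of 10 CPM, and log2 ratios carry exact conditional binomial 95% intervals and shares Clopper-Pearson intervals. With 1 library per group no test was made. Libraries held 170881210 (WT) and 187721815 (KO) UMIs. The scripts were tested on simulated counts. An automatic doublet limit called 1 WT and 0 KO cells, so the top-scoring 230 and 238 cells were left out in an alternative only. Named genes were Mcm2 to Mcm7, Pcna, the highest member of each role and the 5 lowest and 5 highest ratios, and others are named as part of their role. The members, the gene lists and the limits of the marker gates were chosen with earlier results of these data known. Some genes of the gate and marker lists are not reported here by name.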

Additional observations from a re-analysis of the deposited data

Results flagged for a closer look

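Some members had log2 ratios KO over WT of opposite sign in different cell groups, each with a counting interval clear of 0 (S-gated cells at the dip, from CPM). The differences between groups were not tested. Ccne1 stood at -0.30 in granule-high and 0.26 in ungated cells. Mcm6 stood at -0.16 in lymphoid-primed-like, -0.23 in megakaryocyte/erythroid-like, -0.16 in granule-high and -0.23 in ungated cells, and at 0.22 in basophil/mast-like cells. Mcm7 stood at -0.14, -0.20, -0.17 and -0.14 in the same 4 groups and at 0.56 in basophil/mast-like cells. Cdc6 stood at -0.26 in granule-high and -0.15 in ungated cells, and at 0.60 in basophil/mast-like cells. Cdt1 stood at -0.58 in megakaryocyte/erythroid-like, -0.47 in granule-high and -0.36 in ungated cells, and at 0.56 in basophil/mast-like cells. The basophil/mast-like values rest on 96 WT and 77 KO cells.

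Barcodes under 100 UMIs, which no comparison used, held the members at a summed 2453 CPM in WT and 2278 CPM in KO, above the 1001 and 896 CPM of cells out of cycle.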

How the results depend on the processing

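No paired analysis was possible because there is 1 library per group, and for the same reason no library could be left out. The share in cycle (KO minus WT, points) was -1.11 with a gate of 8 UMIs, -0.988 without thinning and -5.49 with a floor of 4000 UMIs, thinning to 4000 and a gate of 3 together. With the S gate at the dip, chosen after the data were seen, it was 0.495, and -0.208 there with a floor of 12000 UMIs. The share in the S gate was -0.326 with a gate of 8, -5.22 with that floor, thinning and gate of 3 together, and 0.796 at the dip. The lymphoid-primed-like share was 1.55 with a floor of 12000. With size factors the members' median was -0.0282 in all cells and -0.0268 in S-gated cells (1 member lower and 4 higher in each), and per cell it was -0.0527 and -0.0181 (1 lower in each, 2 and 4 higher). In S-gated cells size factors gave 0.00491 for Mcm2, 0.0266 for Cdc6, 0.106 for Cdc45, 0.132 for Pcna, 0.0113 for Fen1, 0.0883 for Rpa2, 0.0387 for Tyms and 0.0416 for Exo1. Per cell these gave 0.0136, 0.0353, 0.114, 0.141, 0.0200, 0.0971, 0.0475 and 0.0503, and Mcm7 0.00522. A mean of 50 CPM left 5 of 21 members lower in all cells and 6 of 21 in S-gated cells. At one mix of marker-gated groups, each with cells of every phase, the median over all cells was -0.30. There 24 members were lower, and the share of all genes was not counted. With a gate of 8 the median was lower in 5 of 6 groups. Of the other values of single genes and groups, 520 stayed within their counting error and 92 moved past it, among them E2f1, Gins2 and Ung, whose signs changed with size factors and per cell. The causes were not tested.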
